A study of Mus musculus with 6 samples.

Results

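The DNA replication genes Mcm2, Mcm3, Mcm4, Mcm5, Mcm6, Mcm7, Pcna, Rrm1, Rrm2 and Tyms were followed in mouse peritoneum by RNA sequencing. They were taken from the table by symbol, as a set proposed with earlier results of these data known, and all 10 of the 10 were found among the 14943 symbols of the count table and passed the filter on low counts that left 13980 genes tested. The 3 EPS libraries came from peritoneum of male wild-type C57BL/6J mice aged 8 weeks in which encapsulating peritoneal sclerosis (EPS), a fibrous encasement of the bowel, was modelled. Into the abdomen these mice were given, every day, 100 mL/kg of 4.25% dialysis solution and 0.3 mL of SHS (not spelled out in the labels). Once a week they also received 4 mg/kg of lipopolysaccharide, an endotoxin of bacteria. The 3 control libraries came from mice of the same strain, sex and age given saline at the same volume. Tissue was taken in week 3 in both groups. The EPS mice received all agents together, so the effect of any single agent cannot be told apart. The labels do not say that each library came from a separate mouse, so the p-values measure the spread between these libraries.

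Before a cell copies its DNA, the origin recognition complex, Cdc6 and Cdt1 load the ring of MCM2 to MCM7 proteins onto origins, a step called licensing. In S phase that ring is activated as the replicative helicase, PCNA forms the sliding clamp that holds DNA polymerases on the template, and ribonucleotide reductase (RRM1 with RRM2) and thymidylate synthase (TYMS) supply deoxynucleotides. Transcription of these genes is driven by E2F factors as cells leave quiescence. In resting peritoneum most mesothelial cells, fibroblasts and fat cells are quiescent.

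All 10 genes were higher in EPS than in control, by 2.40-fold (Mcm7) to 17.9-fold (Rrm2), with a median of 4.66-fold. For each of them the lowest of the 3 EPS libraries lay above the highest of the 3 control libraries. Of all tested genes, 29.2% were called higher in EPS, 30.4% were called lower, 33.1% had all EPS libraries above all control libraries, and 59.6% were called in either direction, so a single call of this kind is common in this comparison. The median log2 fold change was 2.16 for the 10 genes and -0.02 for all tested genes. In bulk tissue, more cells of a type and more RNA per cell cannot be told apart. Together the 10 genes took 0.0609%, 0.0732% and 0.0906% of all counts in EPS 1 to 3, against 0.0127%, 0.0117% and 0.0123% in controls 1 to 3. Calls were made by edgeR's quasi-likelihood test at a Benjamini-Hochberg adjusted p under 0.05 over all tested genes, and levels are CPM, counts scaled to a common total, on library sizes scaled by the TMM method.

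**Figure D1:**
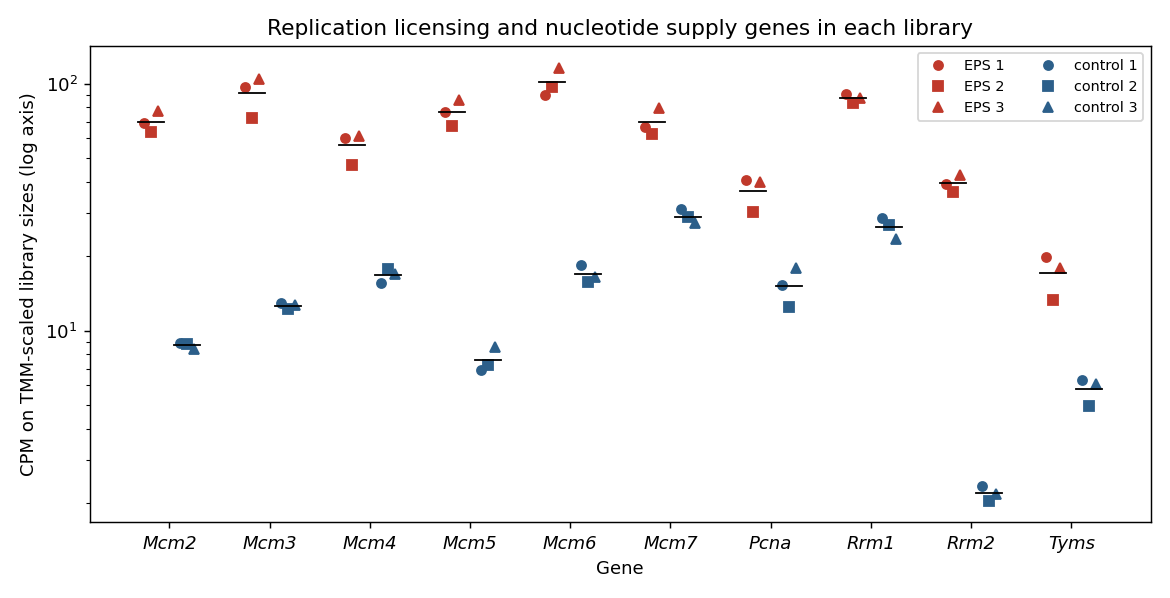
CPM of each of the 10 genes (log axis) in the 3 EPS libraries (red, left of each pair) and the 3 control libraries (blue), with black bars at the group means. The groups do not overlap for any gene, and the widest gap is that of Rrm2, at 36.4 to 42.7 CPM in EPS against 2.05 to 2.36 CPM in controls.

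Library depth was even, at 15419232 to 16651797 counts in EPS and 16092608 to 17684229 in controls. In EPS 1, 13.5% of counts fell on 10 exocrine pancreas genes, against 0.0207% to 0.318% in the other 5 libraries, so EPS 1 stands apart from EPS 2 and EPS 3. Controls 1 and 2 differed less from each other (mean chi-square per gene 4.41) than either did from control 3 (15.9 and 16.4), and whether they share a source is not given in the labels. All 10 genes were called higher without EPS 1, with controls 1 and 2 summed as 1 sample, and with both changes at once. For the mesothelium, 5 of 5 marker genes were detected, with a summed level of 36.8 to 193 CPM in EPS and 117 to 182 CPM in controls, and edgeR called 0 (0 at an unadjusted p under 0.05), DESeq2 0 and limma-voom 1.

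The 6 MCM genes encode the subunits of one helicase ring, and they rose by unequal amounts. Mcm5 (chr8:75109569-75128439 in GRCm38) had 76.8, 67.5 and 85.6 CPM in EPS 1 to 3, against 6.93, 7.27 and 8.60 CPM in controls 1 to 3. Mcm2 (chr6:88883474-88898780) had 69.2, 63.9 and 77.1 CPM in EPS, against 8.93, 8.79 and 8.40 CPM in controls. Mcm3 (chr1:20802968-20820312) had 96.5, 72.5 and 104.7 CPM in EPS, against 12.9, 12.2 and 12.6 CPM in controls. These genes had the steepest rises of the ring, 10.1-fold, 8.04-fold and 7.24-fold, with log2 fold changes of 3.33 ± 0.14, 3.01 ± 0.12 and 2.86 ± 0.15 (SE; adjusted p = 2.13e-06, 1.71e-06 and 3.93e-06). Mcm6 (chr1:128331590-128359664) reached 89.9, 97.0 and 116 CPM in EPS, against 18.4, 15.8 and 16.5 CPM in controls (log2 fold change 2.58 ± 0.13, adjusted p = 3.17e-06). Its group mean in EPS was the highest of the 10 genes in CPM, which is not divided by gene length.

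Mcm4 and Mcm7 rose less. Mcm4 (chr16:15623897-15637400) had 60.3, 46.9 and 61.4 CPM in EPS, against 15.6, 17.7 and 17.0 CPM in controls (log2 fold change 1.74 ± 0.14, adjusted p = 2.25e-05). Mcm7 (chr5:138164583-138172422) had 66.9, 62.3 and 79.5 CPM in EPS, against 30.9, 28.7 and 27.2 CPM in controls (1.26 ± 0.12, adjusted p = 5.85e-05). Mcm7 had the highest CPM, not divided by gene length, of the 10 genes in every control library and none of the highest in EPS. It carries the microRNA genes Mir25, Mir93 and Mir106b within its body, and 7.25% of its exon bases overlap Ap4m1 on the opposite strand. Strand is not marked in the stated protocol, and reads of overlapping genes cannot be told apart.

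Divided by length, the levels of the 6 subunit genes lay closer together in EPS. Per kb of merged exons, the highest subunit exceeded the lowest by 2.58, 2.27 and 2.52 times in EPS 1 to 3, against 5.44, 5.14 and 5.09 times in controls 1 to 3. The same ratio was 1.89 to 2.55 in EPS, against 3.68 to 5.10 in controls, when the longest principal transcript was used as the length, so the groups did not overlap with either length. Mcm7 was the highest subunit in all 3 controls and was passed by Mcm3 or Mcm6 in all 3 EPS libraries. Which subunit was lowest depended on the length: Mcm2 in all 6 libraries with merged exons, but Mcm4 in EPS and Mcm5 or Mcm2 in controls with the principal transcript. The ratio of Mcm5 to Mcm7 per kb of merged exons was 1.27, 1.20 and 1.19 in EPS, against 0.248, 0.280 and 0.351 in controls.

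**Figure D2:**
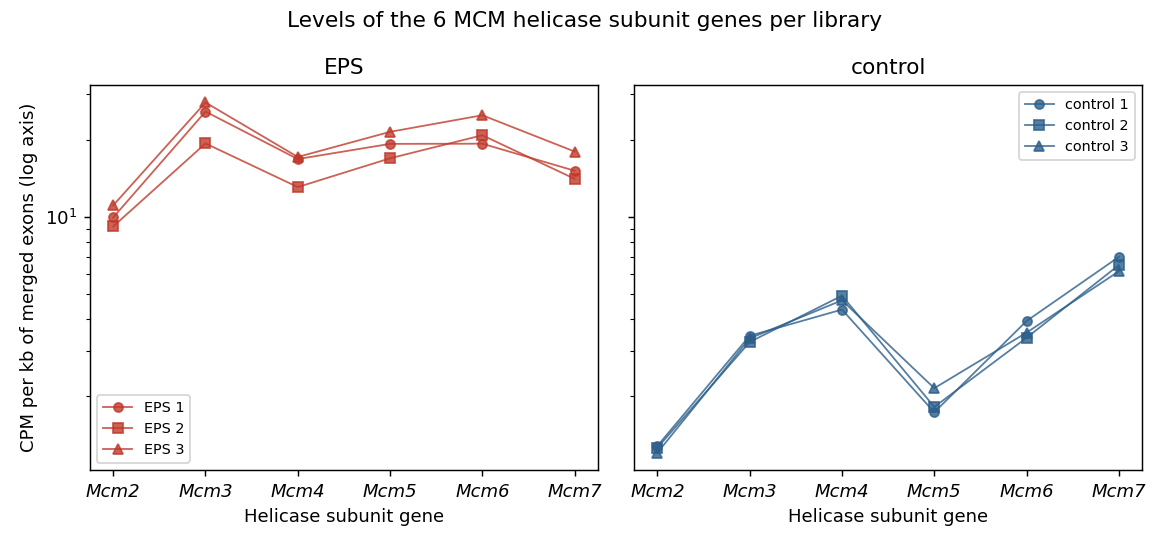
Level of Mcm2 to Mcm7 in CPM per kb of merged exons (log axis), 1 line per library, EPS on the left and control on the right. EPS lines stay within 9.18 to 27.9 CPM per kb, while control lines run between 1.21 and 6.99 CPM per kb with low points at Mcm2 and Mcm5.

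Promoter sequences were compared because the ring genes moved together. RefSeq promoters (GRCm38.p6, 250 bases before to 50 after the gene's start) were found for 9 of the 10 genes, all but Mcm4. They were searched on both strands for the E2F words TTTCCCGC, TTTCGCGC, TTTGCCGC and TTTGGCGC, which can overlap each other, and for CCAAT. At least 1 E2F word was present in Mcm3, Mcm5, Mcm6 and Mcm7, which is 4 of 9 genes (44.4%), against 4.40% of 11027 tested genes with a promoter and 2.60% of all 27025 genes in the table. CCAAT was present in 8 of 9 (88.9%), against 42.2% of tested genes. A match describes these letters and is neither a site nor a cause. The upstream stretches of Mcm5 and Mcm6, which hold the words as overlapping pairs on opposite strands, and of Rrm2, the gene with the largest rise and no E2F word, are shown 5′ to 3′ on the gene's strand with E2F words and CCAAT boxes (ATTGG on the other strand) in capitals. They lie at chr8:75109259-75109508 on the plus strand, chr1:128359706-128359955 on the minus strand and chr12:24708004-24708233 on the plus strand.
Mcm5: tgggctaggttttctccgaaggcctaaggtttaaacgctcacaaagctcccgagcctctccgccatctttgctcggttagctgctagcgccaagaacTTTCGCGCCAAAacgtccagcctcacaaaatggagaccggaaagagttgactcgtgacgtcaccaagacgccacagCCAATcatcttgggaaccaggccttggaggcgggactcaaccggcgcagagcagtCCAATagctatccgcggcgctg
Mcm6: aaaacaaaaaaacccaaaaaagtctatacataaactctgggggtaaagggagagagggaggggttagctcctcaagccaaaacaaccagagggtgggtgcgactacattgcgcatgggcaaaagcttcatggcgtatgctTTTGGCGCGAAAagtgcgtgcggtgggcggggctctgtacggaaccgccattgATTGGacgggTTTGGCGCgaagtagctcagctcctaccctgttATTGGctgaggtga
Rrm2: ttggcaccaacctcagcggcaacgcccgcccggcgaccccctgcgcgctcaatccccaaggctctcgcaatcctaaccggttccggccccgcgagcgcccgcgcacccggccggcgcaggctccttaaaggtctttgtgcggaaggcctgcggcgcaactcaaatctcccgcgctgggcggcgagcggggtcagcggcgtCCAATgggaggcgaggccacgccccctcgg

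In Mcm5 the pair of words starts 153 and 149 bases before the gene's start, and in Mcm6 a pair starts 110 and 106 bases before it, with a single word 47 bases before it. The words of Mcm3 lie just after the start, at positions 20 and 39 counted from 1 at the first transcribed base. Those of Mcm7 lie at 165 bases before the start and at position 17. All these starts are those of RefSeq. For Mcm5, Mcm6 and Mcm7 they differ from the starts in the GENCODE spans given above. The RefSeq start of Mcm7 lies inside its GENCODE span, chr5:138164583-138172422, and so do both of its words. Another RefSeq promoter of Mcm7 held CCAAT but no E2F word. The words of Mcm3 and Mcm7 are shown as 30-base stretches from the minus strand at chr1:20820265-20820294 for Mcm3 and at chr5:138172028-138172057 and chr5:138171844-138171873 for Mcm7.
Mcm3: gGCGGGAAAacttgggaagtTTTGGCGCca
Mcm7: tttcgaaccGCGGGAAAcagggtgtccaac
Mcm7: acgacgTTTCGCGCCAATttcggttggccg
The folds of the 4 genes with a word ran from the lowest (Mcm7) to the second highest (Mcm5) of the 10, and Mcm2 and Rrm2, which held none, lay among the 3 highest.

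Pcna, the sliding clamp that also recruits repair and chromatin factors, was among the least changed. It had 40.5, 30.2 and 39.8 CPM in EPS 1 to 3, against 15.4, 12.4 and 17.9 CPM in controls 1 to 3 (chr2:132249162-132253314). The rise was 2.42-fold (log2 fold change 1.28 ± 0.18, adjusted p = 5.08e-04), and its spread in controls (coefficient of variation 17.9%) was the widest of the 10 genes there. The annotation holds 2 processed Pcna pseudogenes, Pcna-ps1 and Pcna-ps2, and the counting of reads shared with such copies is not stated in the labels.

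Ribonucleotide reductase reduces ribonucleotides to deoxyribonucleotides with a catalytic subunit, Rrm1, and a small radical-bearing subunit, Rrm2, whose level follows the cell cycle. Rrm2 (chr12:24708241-24714146) had 39.2, 36.4 and 42.7 CPM in EPS 1 to 3, against 2.36, 2.05 and 2.18 CPM in controls 1 to 3, the largest rise of the 10 genes (log2 fold change 4.16 ± 0.15, adjusted p = 1.71e-06). Only 531 of 13980 tested genes had a larger log2 fold change. Rrm1 (chr7:102441695-102469771) had 91.0, 83.1 and 87.2 CPM in EPS, against 28.6, 26.8 and 23.4 CPM in controls (3.32-fold, 1.73 ± 0.11, adjusted p = 7.43e-06). Its coefficient of variation in EPS, 4.58%, was the smallest of the 10 genes. The subunits therefore shifted against each other: Rrm2 over Rrm1 per kb of merged exons was 1.71, 1.74 and 1.94 in EPS, against 0.328, 0.303 and 0.370 in controls. With principal transcripts the ratio was 0.785 to 0.892 in EPS and 0.139 to 0.170 in controls, so its place relative to 1 depends on the length used, whereas its difference between the groups does not.

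Rrm2b, the small subunit that serves resting cells and DNA repair, was named after its values were seen. It had 16.2, 13.7 and 10.1 CPM in EPS, against 17.4, 17.2 and 16.8 CPM in controls, and was not called (log2 fold change -0.36 ± 0.19, adjusted p = 0.129). All EPS libraries lay below all controls, as was so for 35.4% of all tested genes. Rrm2 over Rrm2b per kb of merged exons was 7.97, 8.74 and 13.9 in EPS, against 0.448, 0.392 and 0.428 in controls. The small subunit with the higher level was thus Rrm2 in all EPS libraries and Rrm2b in all controls.

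Tyms, which makes thymidylate from deoxyuridylate, had 19.8, 13.3 and 17.98 CPM in EPS 1 to 3, against 6.28, 4.96 and 6.08 CPM in controls 1 to 3 (chr5:30058202-30073617). Its rise was 2.95-fold (1.56 ± 0.20, adjusted p = 3.18e-04), with the widest spread of the 10 genes in EPS (coefficient of variation 19.6%). A processed pseudogene, Tyms-ps, lies on chromosome 10.

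Ordered per kb of merged exons, EPS levels ran from Mcm3 (24.3 ± 4.46 CPM per kb, SD, n = 3) through Mcm6, Mcm5, Mcm7, Mcm4, Pcna and Rrm2 to Mcm2 (10.1 ± 0.960), Rrm1 (7.91 ± 0.362) and Tyms (2.80 ± 0.548). From Mcm3 to Rrm2 each gene's libraries overlapped those of its neighbour, whereas Mcm2, Rrm1 and Tyms each stood clear of the gene above. The control order ran from Mcm7 (6.54 ± 0.424) and Pcna through Mcm4, Mcm6, Mcm3, Rrm1, Mcm5, Mcm2 and Tyms to Rrm2 (0.792 ± 0.0558). There, the neighbours Mcm7 and Pcna, Mcm6 and Mcm3, Rrm1 and Mcm5, and Tyms and Rrm2 overlapped. Rrm2 stood at place 7 in EPS, against the last place in controls. The order depended on the length used. With principal transcripts Mcm6 came first in EPS and Mcm4 stood at place 9 and Rrm2 at place 8, while Pcna came first in controls. Rrm1, whose merged exons span 11012 bp against 3997 bp for that transcript, then stood at place 6 in EPS and place 3 in controls.

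Within each group the same libraries tended to be high or low. EPS 3 had the highest level for 7 of them and EPS 1 for the other 3, and EPS 2 had the lowest for 9. In controls, control 1 had the highest level for 7. The summed level of the 10 genes was 650.3, 573 and 712 CPM in EPS 1 to 3, against 146, 137 and 139.9 CPM in controls 1 to 3. Leaving out any single library kept all 10 called, with log2 fold changes of, for example, 2.93 to 3.09 for Mcm2 and 1.14 to 1.40 for Pcna.

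Markers of several white blood cell types were higher in EPS, as the replication genes were. The share called higher over all tested genes was 29.2%. The summed level of 4 general leukocyte genes (Ptprc, Coro1a, Laptm5 and Cd53, all 4 called higher) was 1429 to 1870 CPM in EPS, against 105 to 128 CPM in controls. T cell markers (6 of 6 called higher) summed to 245 to 518 CPM in EPS, against 6.14 to 9.79 CPM in controls, and B cell markers (5 of 5) to 453 to 747 CPM, against 6.15 to 10.1 CPM. Mature neutrophil markers (6 of 6) summed to 382 to 889.8 CPM in EPS, against 15.6 to 33.2 CPM in controls. Mmp9 made up most of that sum in controls, at 28.7, 27.0 and 11.4 CPM in controls 1 to 3. Markers of neutrophil precursors (5 of 5), which divide, summed to 42.5, 83.0 and 325 CPM in EPS 1 to 3, against 2.25 to 4.56 CPM in controls, where Ctsg and Ms4a3 had no count. All 6 macrophage markers were called higher, at 1793 to 2013 CPM in EPS and 404 to 434 CPM in controls. All 5 plasma cell markers were also called higher, with sums of 887 to 1314 CPM in EPS and 277 to 329 CPM in controls. Xbp1 made up most of the plasma cell sum in controls, at 290, 291 and 233 CPM in controls 1 to 3. It had 761, 338 and 410 CPM in EPS 1 to 3. The 10 replication genes summed to 0.455, 0.382 and 0.381 times the general leukocyte genes in EPS 1 to 3, against 1.38, 1.30 and 1.09 times in controls 1 to 3. The part of these cells in the rise of the replication genes was not tested.

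Other cell types showed different patterns, where 29.2% of all tested genes were called higher and 30.4% lower. Germinal centre B cell markers, 4 called higher and 2 lower of 6, summed to 107 to 126 CPM in EPS and 102 to 119 CPM in controls; Bcl6 and Fas, the lower ones, made up most of that sum in controls. Fibroblast markers (3 of 5 called higher) summed to 4101 to 7379 CPM in EPS, against 2010 to 2080 CPM in controls. The called genes Col1a1, Col1a2 and Lum averaged 2233, 1911 and 233 CPM in EPS, against 461, 507 and 69.1 CPM in controls. Pdgfra and Dcn were not called (log2 fold change 0.04 ± 0.16 and 0.25 ± 0.22), and their EPS and control libraries overlapped. Adipocyte markers (5 of 5 lower) summed to 1032 to 1552 CPM in EPS, against 14330 to 15162 CPM in controls, and blood endothelial markers (5 of 5 lower) to 716 to 928 CPM, against 1743 to 1809 CPM. Of the 3 erythroid genes tested edgeR called 0 (0 at an unadjusted p under 0.05), DESeq2 0 and limma-voom 0, with sums over 4 genes of 7.62 to 38.4 CPM in EPS and 13.4 to 86.6 CPM in controls. Of the 10 exocrine pancreas genes edgeR called 0 (0 at an unadjusted p under 0.05), DESeq2 0 and limma-voom 0, and their sum ran from 162 to 144323 CPM in EPS and from 324 to 3659 CPM in controls.

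**Figure D3:**
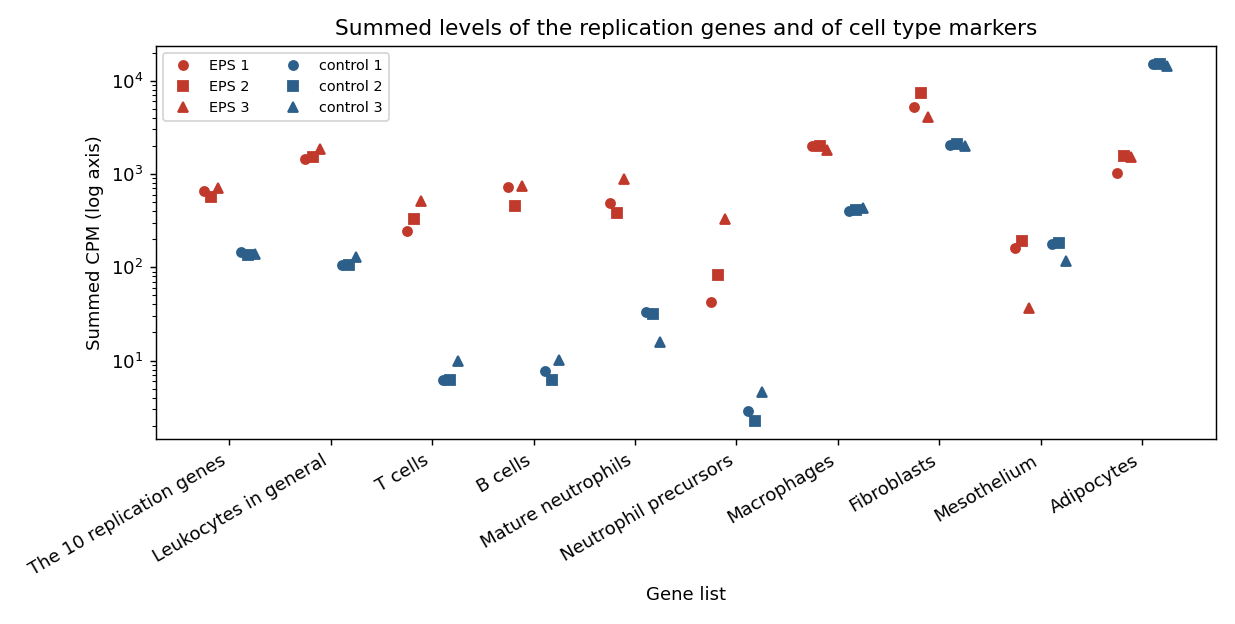
Summed CPM (log axis) of the 10 replication genes and of marker lists of 9 cell types in the 3 EPS libraries (red, left of each pair) and the 3 control libraries (blue). Replication genes, leukocyte, T cell, B cell, neutrophil, macrophage and fibroblast sums lie higher in EPS, the adipocyte sum lies lower, and the mesothelium sums overlap.

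The rest of the replication machinery was read from 9 lists holding 115 genes, of which 113 were tested. Of these, 76 were called higher and 11 lower in EPS, with a median log2 fold change of 1.05, against 29.2% higher and 30.4% lower with a median of -0.02 over all tested genes. Of the 10 genes of the licensing step, 4 were called higher and 4, all origin recognition subunits, lower. Cdc6, the ATPase that recruits MCM rings, had 14.1, 15.7 and 14.7 CPM in EPS, against 1.21, 2.78 and 1.65 CPM in controls (log2 fold change 2.97 ± 0.30), and its partner Cdt1 had 27.6, 21.6 and 43.0 CPM, against 2.21, 4.96 and 3.64 CPM (3.09 ± 0.36). Gmnn, which encodes the Cdt1 inhibitor geminin, and Mcmbp, an MCM-binding protein, rose by 1.98 ± 0.33 and 0.85 ± 0.12 on the log2 scale. These 4 were the called genes of lowest p in their list. Each was higher in every EPS library than in any control, as was so for 33.1% of all tested genes.

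The origin recognition subunits Orc3, Orc4, Orc5 and Orc6 were called lower, at 0.71, 0.64, 0.66 and 0.66 times the control level, each with all EPS libraries below all controls, as was so for 35.4% of all tested genes. Orc5, for example, had 11.9, 11.2 and 11.8 CPM in EPS, against 19.6, 17.7 and 16.1 CPM in controls (log2 fold change -0.61 ± 0.14, adjusted p = 0.00600). Orc1 and Orc2, named after their values were seen, were not called (1.41 ± 0.60 and -0.38 ± 0.23). Orc1 was nevertheless higher in every EPS library (1.46 to 2.36 CPM) than in any control (0.143 to 0.992 CPM), as were 33.1% of all tested genes. The groups overlapped for Orc2. Of their exon bases, 10.8% (Orc1, with Gm12743) and 29.8% (Orc2, with Nif3l1) overlap genes on the opposite strand. All 4 calls held with RLE and upper-quartile factors, with scaling that left out the exocrine pancreas genes, by DESeq2 and by limma-voom. None held with library totals only by edgeR, under which the median log2 fold change of all tested genes was 0.405 in place of -0.02, and the adjusted p was then 0.762, 0.346, 0.471 and 0.559 for Orc3 to Orc6, over ranges whose lowest values were 0.0161, 0.00551, 0.00597 and 0.00601. Orc3 was also lost without control 1 (adjusted p = 0.0726), without control 2 (0.0571), without control 3 (0.0501) and with controls 1 and 2 summed (0.0591). With controls 1 and 2 summed and EPS 1 left out, Orc3, Orc5 and Orc6 were lost (0.0784, 0.0535 and 0.0672), and Orc4 was the 1 call of the 4 that held.

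Genes that activate the loaded ring or partner it at the fork were mostly called higher, 14 of 17, with a median of 1.38. Over all tested genes, 29.2% were called higher and 30.4% lower. Clspn, the fork checkpoint mediator claspin, had 17.7, 16.3 and 16.9 CPM in EPS, against 0.714, 0.198 and 0.529 CPM in controls (5.13 ± 0.35). Ticrr (treslin), which helps fire origins, had 11.4, 9.21 and 9.96 CPM in EPS, against 0.4999, 0.330 and 0.728 CPM in controls (4.27 ± 0.33). Mcm10 and Topbp1, both origin-firing factors, rose by 3.13 ± 0.29 and 1.23 ± 0.13. The RecQ-family helicase gene Recql4 went the other way, at 6.24, 3.57 and 5.75 CPM in EPS against 11.6, 14.9 and 12.5 CPM in controls (-1.33 ± 0.25, adjusted p = 0.00198), and 9.72% of its exon bases overlap Mfsd3 on the opposite strand. Gins4, a subunit of the GINS complex of the helicase, was also called lower (-0.46 ± 0.16, adjusted p = 0.0345), but the call was lost in 11 of the 16 alternatives, among them those without control 1 (0.0722), control 2 (0.0543), control 3 (0.122), EPS 1 (0.141) or EPS 2 (0.0934), over a range of 0.00953 to 0.934.

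Polymerases and clamp handling genes were higher or not called, whereas 29.2% of all tested genes were called higher and 30.4% lower. Of 12 replicative polymerase and primase genes 9 were called higher and 3 were not called, and their median was 1.06. Pole, the catalytic subunit of the leading-strand polymerase, had 19.96, 21.8 and 19.5 CPM in EPS, against 4.07, 3.83 and 4.37 CPM in controls (2.32 ± 0.15). Pold1 and Pold3, subunits of the lagging-strand polymerase, and Prim1, of primase, rose by 1.72 ± 0.18, 0.98 ± 0.12 and 1.60 ± 0.21. Of 18 clamp loader and clamp partner genes 14 were called higher and 4 were not called, and their median was 1.13. Pclaf, which encodes a small PCNA-binding protein, had 45.7, 29.9 and 35.3 CPM in EPS, against 1.07, 1.26 and 1.39 CPM in controls (4.89 ± 0.23), a far larger rise than that of Pcna itself. Lig1, the ligase that joins Okazaki fragments, the clamp loader subunit gene Rfc5 and the RNase H2 subunit gene Rnaseh2b rose by 2.44 ± 0.17, 1.87 ± 0.18 and 1.81 ± 0.22. On the opposite strand, Wsb2 overlaps 10.7% of the exon bases of Rfc5. The flap nuclease gene Fen1 was too low to be tested, at 0.250 CPM in EPS and 0.0220 CPM in controls on average, and 78.8% of its exon bases overlap the antisense gene Gm10143.

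Beyond Rrm1, Rrm2 and Tyms, 8 of 14 deoxynucleotide supply genes were called higher and 6 were not called, and their median was 1.35. Mthfd2, a mitochondrial enzyme of folate metabolism, had 65.1, 52.1 and 56.6 CPM in EPS, against 5.00, 5.55 and 6.61 CPM in controls (3.34 ± 0.16). Dck, the deoxycytidine salvage kinase, had 46.6, 52.4 and 63.5 CPM in EPS, against 8.57, 8.79 and 8.27 CPM in controls (2.66 ± 0.15). Shmt2, which feeds one-carbon units into the same mitochondrial folate pathway, rose by 1.42 ± 0.10. Samhd1 degrades deoxynucleotides and is abundant in myeloid cells, and it rose as well, to 409, 464 and 502 CPM in EPS against 92.8, 94.5 and 108 CPM in controls (2.22 ± 0.13). Of 15 genes of de novo purine and pyrimidine synthesis, 7 were called higher (46.7%) and 2 lower (13.3%), and the median was 0.26. Over all tested genes the shares were 29.2% and 30.4%. Ppat and Cad, the entry enzymes of the purine and pyrimidine routes, rose by 1.28 ± 0.20 and 0.86 ± 0.13, and Impdh2 and Atic by 0.84 ± 0.15 and 0.66 ± 0.12. Dhodh and Ctps2 were lower (-0.83 ± 0.17 and -0.53 ± 0.11), and neither passed with library totals only (adjusted p = 0.175 and 0.701, over ranges from 0.00145 and 0.00171); Ctps2 was also lost with controls 1 and 2 summed and EPS 1 left out (0.0532). Of the 15, 4 were called higher without control 2, 4 with controls 1 and 2 summed, and 11, with 0 lower by edgeR, with library totals only.

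Of the MCM family members outside the ring, 2 were tested. Mcm9, which acts in homologous recombination, rose by 0.55 ± 0.20 (adjusted p = 0.0447), and Mcm8, its partner, named after its values were seen, was not called (-0.69 ± 0.33, adjusted p = 0.0996). The call for Mcm9, 19.2% of whose exon bases overlap Asf1a on the opposite strand, was lost without control 1, 2 or 3 (0.133, 0.0832 and 0.118), EPS 2 (0.138) or EPS 3 (0.0847). It was also lost by limma-voom (0.0548) and with controls 1 and 2 summed (0.104), over a range of 0.00281 to 0.138. Mcmdc2 was not analysed here.

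E2F factors and pocket proteins, the regulators of replication gene transcription, were called in both directions. Of 13 such genes, 7 were called higher (53.8%) and 3 lower (23.1%), against 29.2% and 30.4% of all tested genes. Their median log2 fold change was 0.50. E2f8, a repressor that is itself cell-cycle regulated, had 17.6, 17.7 and 22.6 CPM in EPS, against 0.786, 0.661 and 0.728 CPM in controls (4.72 ± 0.22), and 11.2% of its exon bases overlap Gm2788. The activators E2f2 and E2f1 rose by 2.48 ± 0.20 and 1.22 ± 0.13, and the pocket protein gene Rbl1 (p107) by 1.61 ± 0.15. Rb1, which encodes the retinoblastoma protein, fell to 32.0, 25.2 and 21.4 CPM in EPS, against 58.8, 56.8 and 56.0 CPM in controls (-1.13 ± 0.15, adjusted p = 3.42e-04). On the opposite strand, Rcbtb2 and Lpar6 overlap 8.11% and 6.78% of the exon bases of Rb1. E2f6, a repressor, and Tfdp2, an E2F partner, were lower by 0.68 ± 0.15 and 0.73 ± 0.24 on the log2 scale, but not with library totals only (adjusted p = 0.378 and 0.195, over ranges from 0.00261 and 0.00411). Tfdp2 was also lost without control 1, 2 or 3 (0.0590, 0.0895 and 0.0816) or EPS 2 (0.0576), and with controls 1 and 2 summed (0.0696).

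All 12 mitotic and proliferation genes were called higher, against 29.2% of all tested genes, with a median log2 fold change of 3.55. Top2a, which untangles replicated DNA, had 80.2, 57.7 and 56.6 CPM in EPS, against 1.86, 2.51 and 2.84 CPM in controls (4.74 ± 0.22). Ccnb1, Aurkb and Tpx2, which act in mitosis, rose by 4.16 ± 0.29, 3.49 ± 0.19 and 3.28 ± 0.15. The log2 fold changes of the list ran from 2.63 (Nusap1) to 4.92 (Mki67, a marker of dividing cells), both named after their values were seen. Those of Rrm2, Mcm5, Mcm2 and Mcm3 lay within that range. Those of Mcm6 (2.58), Mcm4 (1.74), Rrm1 (1.73), Tyms (1.56), Pcna (1.28) and Mcm7 (1.26) lay below it.

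**Figure D4:**
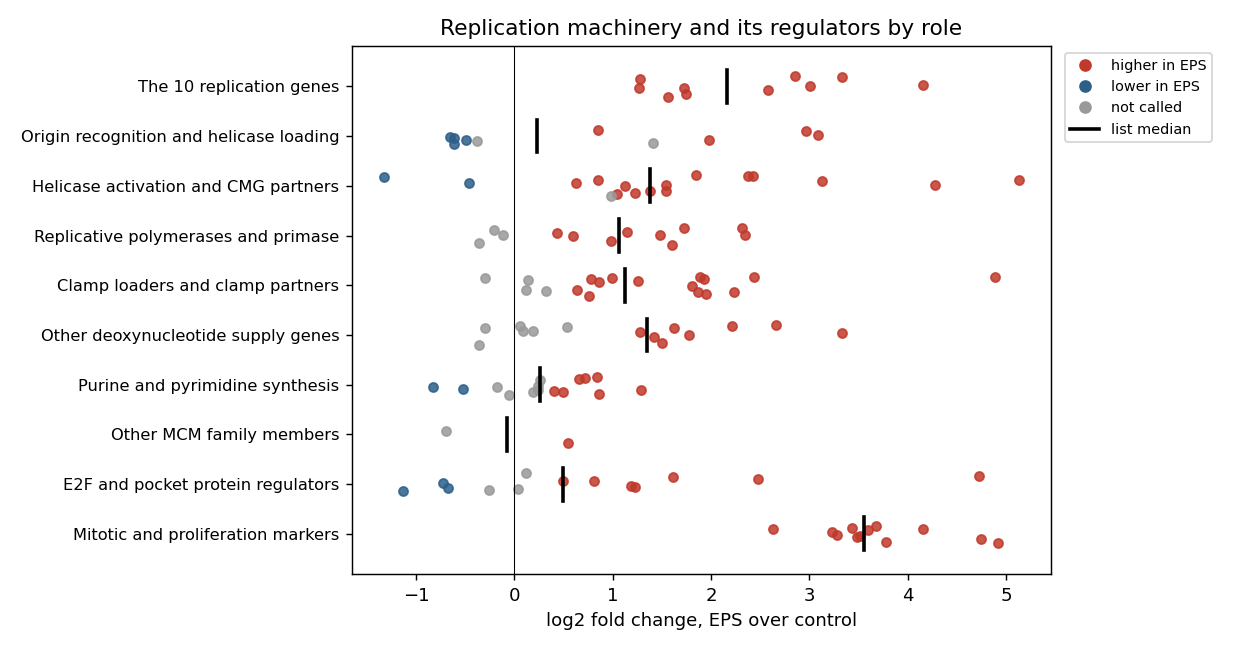
Log2 fold change of EPS over control for each tested gene of the 10 replication genes and the 9 lists, 1 point per gene, red for called higher, blue for called lower and grey for not called, with black bars at list medians. Medians run from -0.07 for other MCM family members to 3.55 for mitotic genes, and the blue points are 4 origin recognition subunits, Recql4, Gins4, Dhodh, Ctps2, Rb1, E2f6 and Tfdp2.

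The E2F words of the promoters were also counted over the 9 lists. At least 1 word was present in 25 of 93 genes with a promoter (26.9%), including 5 of 9 licensing genes (Orc1, Orc3, Cdc6, Cdt1 and Mcmbp), 5 of 10 polymerase genes, 5 of 10 E2F and pocket protein genes and 0 of 12 deoxynucleotide supply genes. Words were present both in genes called higher, such as Cdc6 and Clspn, and in Orc3, which was called lower.

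The 8 tested genes whose profile over the 6 libraries lay closest to the mean profile of the 10 were Gimap4, Incenp, Sh3bp2, Cxcr6, Mms22l, Tnfrsf1b, Nrros and Junb. Their root-mean-square distances on centred log2 CPM were 0.0518 to 0.0924, against 0.161 (Mcm6) to 0.887 (Rrm2) for the 10 genes themselves. Gimap4, a lymphocyte GTPase gene, had 171, 159 and 196 CPM in EPS 1 to 3, against 35.4, 33.04 and 37.3 CPM in controls 1 to 3. Incenp, a scaffold of the chromosomal passenger complex, had 66.2, 63.1 and 78.8 CPM in EPS, against 12.8, 13.2 and 12.96 CPM in controls. All 6 values of a gene come from the same libraries as those of the 10, so this likeness is a description.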

How the data were processed

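RNA from peritoneum was sequenced in 3 EPS and 3 control libraries. Per the labels' protocols, polyadenylated RNA was selected from 3 µg of total RNA and amplified by 15 PCR cycles. The authors deposited raw counts per gene symbol with no normalization. The build was mm10 per the submitters' processing notes, while the aligner, counter and annotation used were not given in the sources here. GENCODE vM21 and RefSeq tables of the same assembly, GRCm38, gave coordinates, lengths and promoters.

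From the deposited counts, genes were kept by filterByExpr and scaled by TMM. Differences, EPS over control, were tested by quasi-likelihood F-test in edgeR (4.0.16, R 4.3.3) with robust dispersions, no covariates and Benjamini-Hochberg adjustment over 13980 genes. An SE is the log2 fold change divided by the square root of F. The test was tried on simulated counts first. The 16 alternatives included DESeq2 1.42.0 and limma-voom (limma 3.58.1). The genes, the 9 pathway lists and the 14 marker lists were chosen with earlier results of these data known. Each list names up to 4 called genes of lowest adjusted p and those called against its majority (with equal counts, the lower ones). Profile distances used log2(CPM + 0.1). Labels give no batch.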

Additional observations from a re-analysis of the deposited data

How the results depend on the processing

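All 10 genes kept their direction and their call under each of the 16 alternatives. Their log2 fold changes were lowest at 1.14 (Pcna, without control 2) and highest at 4.59 (Rrm2, library totals only), and their highest adjusted p was 0.00508 (Pcna, controls 1 and 2 summed and EPS 1 left out). That setting and the principal transcript length were chosen after seeing the data. With library totals only, 2182 genes were lower against 4245 and 5657 higher against 4088, and 2 pathway genes were lower against 11. With controls 1 and 2 summed and EPS 1 left out, 6 were lower. Leaving out 1 library gave 3459 to 4393 genes higher and 3545 to 4155 lower, with 8 to 12 pathway genes lower. The cause of these shifts was not tested.

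With the replicate number as a block (replicate block), 3947 genes were higher and 4166 lower, and all 10 genes were called. Same-numbered libraries deviated from their group means with correlations of 0.201, -0.0952 and 0.236. EPS 1 and EPS 3 correlated best with their own number, EPS 1 nearly as well with control 2 (0.195). EPS 2 correlated best with control 3 (0.186). With 3 libraries per group, these values cannot decide whether the numbers pair the samples. Depth limits the low genes: Rrm2 had 31 to 33 counts per control library.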
